A study of Mus musculus with 8 samples.

Results

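Genes of DNA replication and mitosis, with the D cyclins that precede them and the inhibitors that oppose them, were followed in 4 mouse hematopoietic cell lines with and without PICALM, an adaptor protein of clathrin-mediated endocytosis. The 43 genes were chosen by symbol. Of these, 16 act in DNA replication, 3 in entry into S phase and 15 in mitosis, 5 encode D cyclins or their kinases, and 4 are cell cycle inhibitors. Each gene was read from the probe set with the highest mean log2 level over the 8 arrays, which gave values for 41 of the 43 genes, out of 12393 genes on the array. E2f2 and Ccnb1 had no probe set annotated to them alone and were not analysed here.

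The lines, PICALM6A, PICALM6B, PICALM6D and PICALM84 (6A, 6B, 6D and 84 from here on), came from livers of Picalmfit1-5R embryos at embryonic day 14 on the B6(Cg)-TyrC-2J/J background. Both groups carried the same retroviral MLL-ENL oncogene, which immortalized the cells, and both were grown in interleukin-3 (5 ng/ml) and stem cell factor (50 ng/ml). The 4 Picalm-knockout samples were transduced with the empty MSCVneo retrovirus and the 4 PICALM-rescued samples with human PICALM cDNA in the same vector, each line giving 1 array per group. The methods name G418 selection for both, and the study names as a limit of the rescue that it can bring in more PICALM than cells normally hold. These are cultured lines selected by serial replating, so growth genes were read in cells that all divide under an oncogene and 2 cytokines. Line 84 stood apart from the other 3 lines over much of the array. For many of the genes where it sets a value described here, the value without it, or the values by line, are given beside it.

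Cells commit to division in G1, when D cyclins bind CDK4 or CDK6 and phosphorylate the retinoblastoma protein, which frees E2F factors to switch on the replication genes. The MCM helicase is loaded on origins with CDC6 and CDT1 and started with CDC45 and GINS. Polymerase alpha and the sliding clamp then take part in copying the genome, and the enzymes of deoxynucleotide synthesis supply the building blocks. Mitotic genes peak later, and in blood progenitors the D cyclins respond to cytokines such as interleukin-3 and stem cell factor.

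The replication and mitosis genes differed little between PICALM-rescued and knockout cells, and the larger differences were in the D cyclins. After rescue, Ccnd1 and Ccnd2 were lower in each of the 4 lines, by 0.71 ± 0.15 and 0.49 ± 0.08 on the log2 scale (SE, n = 4 lines), which is 1.64-fold and 1.41-fold, whereas the third D cyclin, Ccnd3, was higher in all 4 lines by 0.18 ± 0.04. The median change was -0.03 over the replication genes, 0.02 over the measured mitosis genes and 0.0027 over all 22626 probe sets. In limma with the line as a block and a threshold of 12.3% on the adjusted p, 0 of the 41 genes were called higher, against 0.00442% of all probe sets (1), and 0 were called lower, against 0.0751% (17). At an unadjusted p under 0.05, 3 of the 41 were higher (Ccnd3, Plk1 and Mki67), against 1396 of all 22626 probe sets. At the same threshold 4 were lower (Ccnd1, Ccnd2, Cdk4 and Pola1), against 1429. SAM paired by line, a form of the statistic that the study's methods name, called 0 higher (0.539% of all probe sets) and 2 lower, Ccnd1 and Ccnd2 (4.88%, against 2.08% of all probe sets), and unpaired SAM called none of them.

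**Figure D1:**
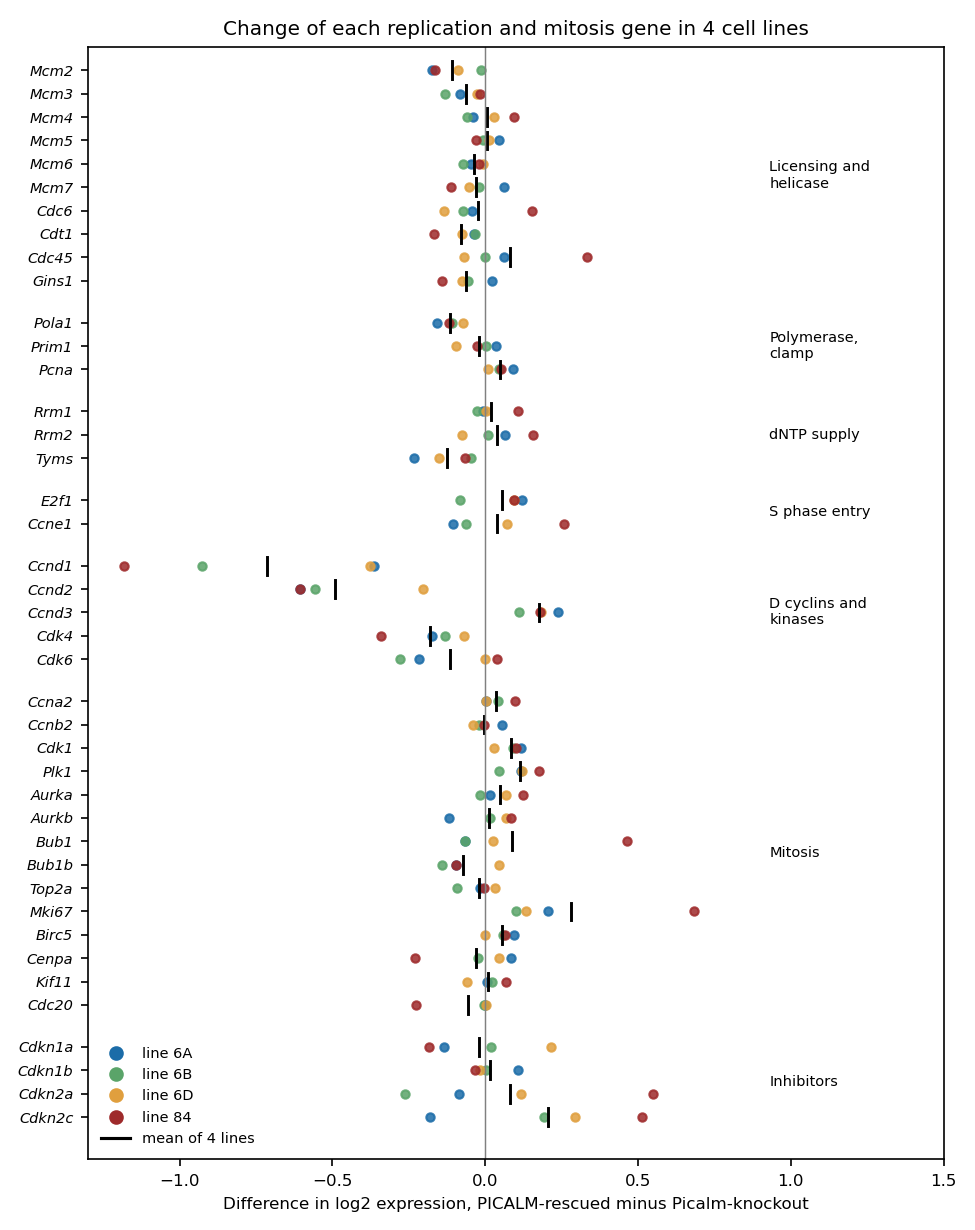
Difference in log2 expression (horizontal axis, PICALM-rescued minus Picalm-knockout) for each of 41 genes (vertical axis, by role), with 1 coloured point per cell line and a black bar at the mean of the 4 lines. Most points lie near 0, Ccnd1 and Ccnd2 lie to the left in all 4 lines, and Mki67, Bub1 and Cdkn2a have 1 point, line 84, far to the right of the others.

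For 34 of the 41 genes (82.9%) the 95% interval of the change lay within 1.25-fold in either direction, as it did for 79.5% of all probe sets, and 30 genes had a mean change under 0.1 in size. The exceptions were Ccnd1, Ccnd2, Cdk4, Bub1, Mki67, Cdkn2a and Cdkn2c. A difference smaller than these intervals was not detectable with 4 pairs of arrays. The sign was the same in all 4 lines and positive for 6 genes (14.6%, against 12.0% of all probe sets), and the same and negative for 9 (22.0%, against 11.8%). These counts were 4 and 10 after quantile normalization and 7 and 7 after centring each array on its median. Negative signs thus did not outnumber positive ones under the second scaling. The shares over all probe sets were not counted under these scalings. The 8 arrays spanned a median of 0.30 log2 units for these genes, against 0.36 for all probe sets.

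All 10 genes of origin licensing and the replicative helicase had intervals within 1.25-fold. Their mean changes ran from -0.11 (Mcm2) to 0.08 (Cdc45), where line 84 set the upper end (Cdc45 was at 0.06, -0.00, -0.07 and 0.33 in 6A, 6B, 6D and 84, and its mean was -0.0028 without line 84), with the other helicase subunits Mcm3 to Mcm7, the loaders Cdc6 and Cdt1, and Gins1, a subunit of the GINS complex, in between. Mcm2, Mcm3, Mcm6 and Cdt1 were lower in all 4 lines and no gene of this group was higher in all 4. For Mcm2 the common sign and the -0.11 rest on the brightest of 2 probe sets. The other had signs that differed between lines and a mean change of -0.0060. Mcm3, a subunit of the MCM ring, was at 12.17, 12.22, 12.18 and 12.16 in the knockout arrays of lines 6A, 6B, 6D and 84, and at 12.09, 12.09, 12.15 and 12.14 in the rescued arrays. The 4 rescued values were below every knockout value, although the mean change was -0.06 ± 0.04 (SE, n = 4 lines; adjusted p = 0.57, limma). The other probe sets of Mcm3 did not all share this direction, since the dimmest of the 5 had a mean change of 0.11.

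Among the genes that lay down DNA, Pola1, the catalytic subunit of polymerase alpha, was lower in rescued cells. Its log2 level was 10.65, 10.71, 10.68 and 10.77 in the knockout arrays (6A, 6B, 6D, 84) and 10.50, 10.60, 10.60 and 10.65 in the rescued arrays. The groups met without overlapping, at 10.65 on both sides when rounded, and the change was -0.11 ± 0.04 (SE, n = 4 lines; adjusted p = 0.37, limma). Prim1, which encodes the primase that makes RNA primers, had a mean change of -0.02 and Pcna, the sliding clamp, of 0.05, with Pcna higher in all 4 lines.

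Of the genes of deoxynucleotide supply, Rrm1 and Rrm2, the subunits of ribonucleotide reductase, had mean changes of 0.02 and 0.04 (-0.01 and -0.0008 without line 84) with signs that differed between lines. Tyms, which encodes thymidylate synthase, was at 6.52, 6.52, 6.57 and 6.49 in the knockout arrays of 6A, 6B, 6D and 84 and at 6.29, 6.47, 6.42 and 6.43 in the rescued arrays. All 4 rescued values were below the lowest knockout value, with a change of -0.12 ± 0.05 (SE, n = 4 lines; adjusted p = 0.40, limma). This probe set was dim, below the median of every array (7.32 to 7.35). The other Tyms probe sets, dimmer still, had groups that overlapped and signs that differed between lines. Their mean changes were -0.06 and -0.01. Mcm3, Pola1 and Tyms were the 3 genes of the 41 (7.32%) whose groups did not overlap with rescued lower, against 1.57% of all probe sets, and 0 had groups that did not overlap with rescued higher, against 1.88%. Over all 16 replication genes, the 4 lines had a common negative sign for 6 (37.5%, against 11.8% of all probe sets) and a common positive sign for 1 (6.25%, against 12.0%). These counts moved with the scaling, to 6 and 0 after quantile normalization and to 4 and 1 after centring each array on its median.

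Other genes of DNA replication had more negative than positive signs. A further 43 genes (of 49 listed), which encode origin recognition, polymerase, clamp loader and checkpoint proteins, were measured. Of these, 14 (32.6%, against 11.8% of all probe sets) were lower and 3 (6.98%, against 12.0%) higher in all 4 lines. These counts were not repeated under other scalings. The median change was -0.05 (medians of -0.0016, -0.06, -0.06 and -0.02 in 6A, 6B, 6D and 84), and 0 were called by limma (0 higher and 5 lower at an unadjusted p under 0.05). SAM paired called 1, Hells, a chromatin remodeller, which was lower by 0.26, 0.16, 0.20 and 0.15 in lines 6A, 6B, 6D and 84 (mean -0.19 ± 0.04, SE; adjusted p = 0.31, limma). Exo1, an exonuclease of DNA repair, had a mean change of -0.18 and Rpa2, a subunit of the single-strand binding complex, of -0.13. Tk1, the thymidine kinase of the salvage pathway, was at 0.13 in the other direction, and its groups did not overlap.

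Promoter sequences of replication and mitosis members held different motifs. They are shown because replication genes are classic targets of E2F factors, whose site is TTTCCCGC, TTTGGCGC, TTTCGCGC or TTTGCCGC, and late genes are classic targets of the CHR element, TTTGAA, often near CCAAT. Windows from 250 bases before to 50 after each start were taken from RefSeq (GRCm38.p6), which held 37 of the 43 genes, and searched on both strands. An E2F site was in 7 of 14 replication members (50.0%), 1 of 13 mitosis members (7.69%) and 2.60% of all 27025 genes of the table. CHR was in 2 of 14 (14.3%), 10 of 13 (76.9%) and 20.2% of all genes, and CCAAT in 78.6%, 92.3% and 41.1%. The 3 members of the D cyclin group with a promoter in the table, Ccnd3, Cdk4 and Cdk6, held neither E2F nor CHR letters. In the following stretches, written 5′ to 3′ along the gene, capitals mark these letters on either strand (ATTGG is CCAAT read from the other strand). Mcm6 lies at chr1:128359736-128359825 (minus strand) and Pola1 at chrX:93632186-93632305 (minus), Mki67 at chr7:135716465-135716574 (minus) and Cdk1 at chr10:69352913-69353052 (minus), and Cdk4 at chr10:127063435-127063534 (plus).
Mcm6: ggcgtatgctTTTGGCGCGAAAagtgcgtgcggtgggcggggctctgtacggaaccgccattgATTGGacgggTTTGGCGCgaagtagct
Pola1: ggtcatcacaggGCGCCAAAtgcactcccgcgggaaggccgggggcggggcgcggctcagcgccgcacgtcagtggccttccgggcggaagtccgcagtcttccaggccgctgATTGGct
Mki67: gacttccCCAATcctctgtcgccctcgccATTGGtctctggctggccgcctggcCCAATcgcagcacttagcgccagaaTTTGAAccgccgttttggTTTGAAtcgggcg
Cdk1: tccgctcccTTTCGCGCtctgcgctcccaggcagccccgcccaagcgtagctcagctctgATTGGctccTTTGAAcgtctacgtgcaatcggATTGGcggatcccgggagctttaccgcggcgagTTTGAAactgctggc
Cdk4: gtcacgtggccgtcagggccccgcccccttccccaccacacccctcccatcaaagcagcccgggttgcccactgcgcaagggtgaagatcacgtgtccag
Overlapping E2F sites on opposite strands form 1 run of capitals in Mcm6. Pola1 has 1 site read from the other strand, Mki67 has a pair of CHR elements beside CCAAT, Cdk1 has both kinds, and the Cdk4 stretch has none of these letters. Among the other genes of each pathway with a promoter, E2F sites were in 30.8% of 39 replication and 8.33% of 48 mitosis genes, and CHR in 15.4% and 64.6%. A match is a run of letters and was not tested as a site.

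Entry into S phase was read from E2f1, a transcription factor, and Ccne1, which encodes the cyclin partner of CDK2. Their changes were 0.06 and 0.04 (0.04 and -0.03 without line 84), each with lines on both sides of 0.

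The D cyclins and their kinases were the group with the widest differences. Ccnd1 was at 8.48, 8.76, 8.31 and 10.86 in knockout arrays of lines 6A, 6B, 6D and 84, and at 8.12, 7.83, 7.94 and 9.68 in rescued arrays. Every line was lower after rescue, by 0.36, 0.93, 0.38 and 1.18, and both arrays of line 84 stood above the other 6. The change of -0.71 (95% interval -1.09 to -0.33) had an adjusted p of 0.31 in limma. It was called by SAM paired and was -0.56 without line 84.

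Ccnd2 encodes the D cyclin best known for its response to cytokines. Its level was 11.60, 11.52, 11.42 and 12.76 in knockout arrays (6A, 6B, 6D, 84) and 10.99, 10.96, 11.22 and 12.16 in rescued arrays. Line by line it was lower by 0.60, 0.56, 0.21 and 0.60, least in 6D, and line 84 was again the highest in both groups. The change of -0.49 (95% interval -0.69 to -0.29) had an adjusted p of 0.23 in limma, the lowest of the 41, and was -0.46 without line 84.

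Ccnd3, the cyclin of the same family, differed in the other direction. It was at 11.29, 11.36, 11.30 and 11.07 in knockout arrays (6A, 6B, 6D, 84) and at 11.52, 11.47, 11.48 and 11.25 in rescued arrays. Line 84 was the lowest in both groups, and the groups overlapped only through its rescued array. The change was 0.18 (95% interval 0.07 to 0.29; adjusted p = 0.32, limma).

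**Figure D2:**
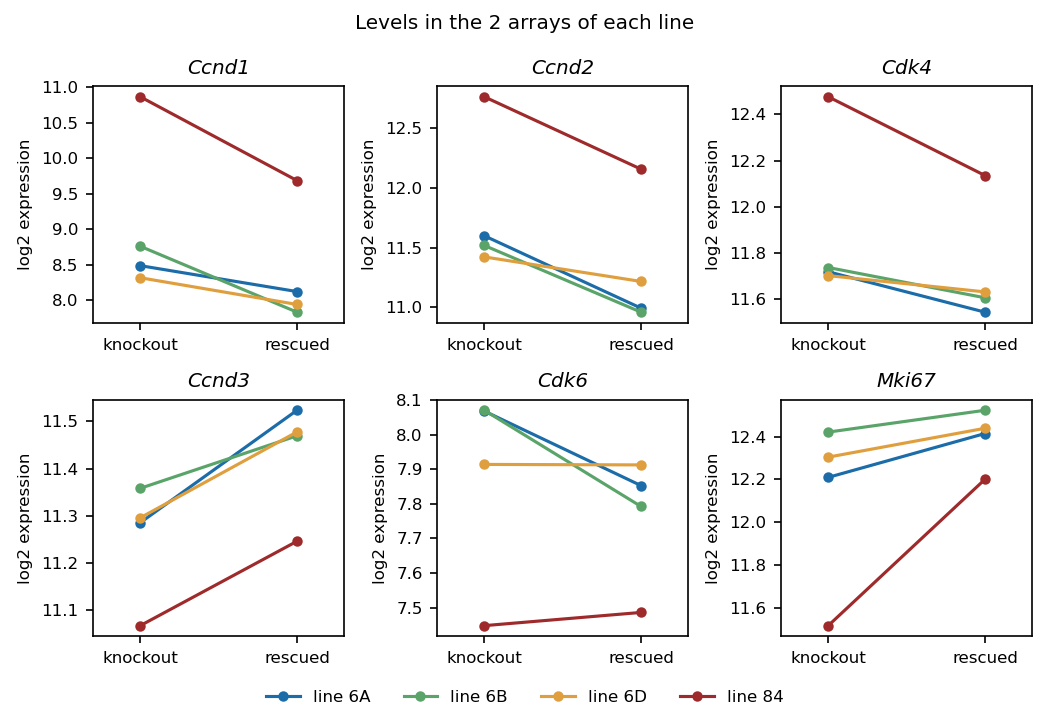
Log2 expression (vertical axis, a separate scale per gene) of 6 genes in the Picalm-knockout and PICALM-rescued array of each line, joined by a line and coloured by cell line. Ccnd1, Ccnd2 and Cdk4 slope down and Ccnd3 and Mki67 up in all 4 lines, and line 84 is set apart in all 6 panels.

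Cdk4, the kinase that D cyclins activate, was at 11.72, 11.74, 11.70 and 12.48 in knockout arrays (6A, 6B, 6D, 84) and at 11.54, 11.61, 11.63 and 12.14 in rescued arrays. It was lower after rescue in all 4 lines, by 0.18 ± 0.06 on average (SE; adjusted p = 0.35, limma), and by 0.13 without line 84, which had the 2 highest values. Cdk6, the related kinase, was at 8.07, 8.07, 7.91 and 7.45 in knockout arrays and at 7.85, 7.79, 7.91 and 7.49 in rescued arrays. It was lower in 6A and 6B, near level in 6D and 84, and had its lowest values in line 84, the reverse of Cdk4 (mean change -0.11 ± 0.07, SE; adjusted p = 0.53, limma), and its mean change was -0.17 without line 84.

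Line 84 set most of the overlap between groups here. With lines 6A, 6B and 6D alone, a count chosen after the values were seen, the groups did not overlap for any of the 5 genes of the D cyclin group, with Ccnd3 higher and the others lower. Over the 41 genes, 4 (9.76%) did not overlap and were higher in these lines, against 9.34% of all probe sets, and 9 (22.0%) did not overlap and were lower, against 7.87%. For Cdk6 the gap rests on line 6D, where both arrays were at 7.91. None of the 41 was called by limma in these 3 lines.

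The array carries several probe sets for some of these genes, which gave a second reading of the same RNA. All 7 probe sets of Ccnd2 were lower in all 4 lines, with mean changes from -0.57 to -0.46 and limma adjusted p from 0.15 to 0.30, and SAM paired called all 7. The 3 probe sets of Ccnd1 ran from -0.71 to -0.65, with 2 called by SAM paired, and the 3 of Cdk4 from -0.20 to -0.18, with 1 called. Probe sets of 1 gene share the RNA sample and are no further replicates. Of the 22 genes with more than 1 probe set, 5 had probe sets that differed in sign, all with mean changes of at most 0.11 in size.

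**Figure D3:**
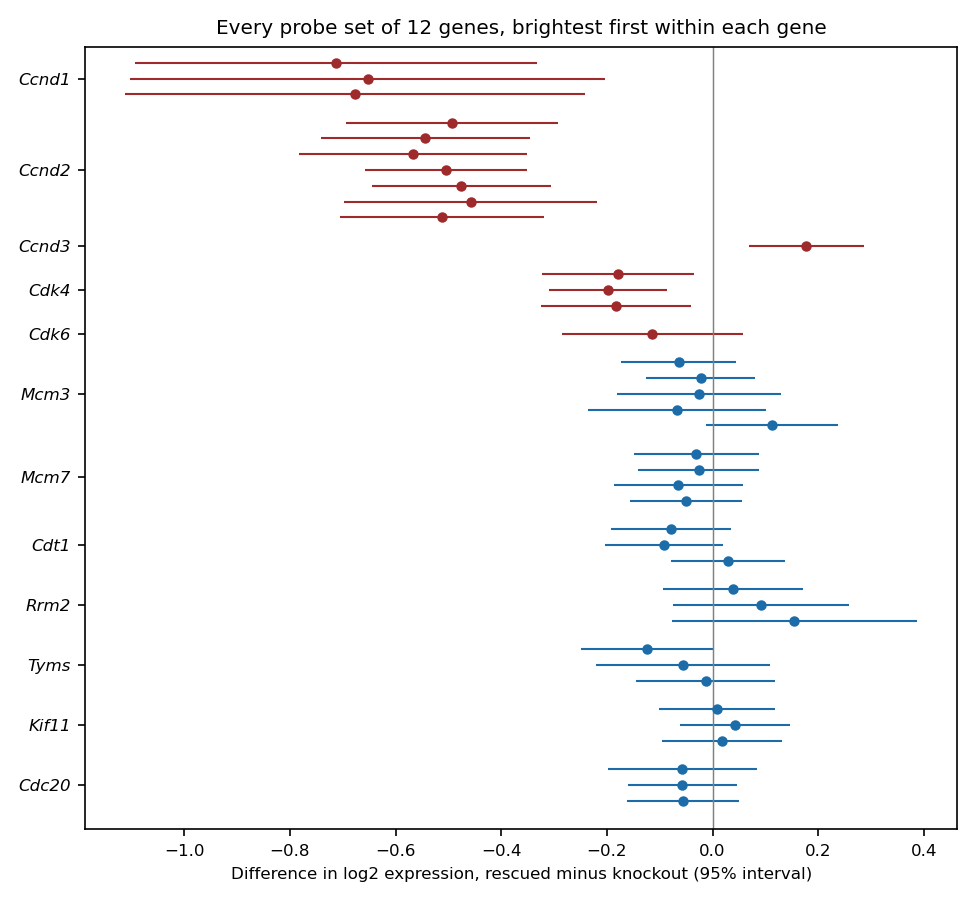
Change in log2 expression (horizontal axis, rescued minus knockout, points with 95% intervals from limma) for every probe set of the D cyclin group (red) and of the other genes with 3 or more probe sets (blue), 12 genes in all. The probe sets of Ccnd1, Ccnd2 and Cdk4 lie left of 0 with their intervals, whereas those of the replication and mitosis genes lie around 0.

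Other regulators of G1 were measured for 31 of 36 genes, among them retinoblastoma and E2F family members and p53 targets. The sign was positive in every line for 3 of them (9.68%, against 12.0% of all probe sets) and negative in every line for 3 (9.68%, against 11.8%). The median change was 0.02, and 0 were called by limma or SAM paired (2 higher and 1 lower at an unadjusted p under 0.05). Gadd45b, a stress-induced growth regulator, had a mean change of 0.38, from 0.29, 0.40, 0.01 and 0.84 in 6A, 6B, 6D and 84. Sesn2, a stress-induced regulator of growth signalling, was at -0.32, and Myc, a transcription factor that drives growth, at -0.11 (adjusted p = 0.40, limma).

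The mitosis genes had small changes. Their median was 0.01, 0.0066, 0.03 and 0.08 in lines 6A, 6B, 6D and 84, and the median of the mean changes, 0.02, was 0.0076 without line 84 and 0.0053 with array weights. Of the 14 measured, 4 (28.6%, against 12.0% of all probe sets) were higher in all 4 lines, namely Ccna2, Cdk1, Plk1 and Mki67. None was lower in all 4 (against 11.8%), and 12 had intervals within 1.25-fold. The sign was common to every line and positive for 3 and negative for 1 after quantile normalization, and for 5 and 0 after centring on the median. Mki67, which encodes the proliferation antigen Ki-67, was at 12.21, 12.42, 12.30 and 11.52 in knockout arrays (6A, 6B, 6D, 84) and at 12.41, 12.52, 12.44 and 12.20 in rescued arrays. The knockout array of line 84 lay far below the other 7, and the change of 0.28 ± 0.11 (SE, n = 4 lines; adjusted p = 0.38, limma) was 0.15 without that line.

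Bub1, a kinase of the spindle checkpoint, had the same low array. It was at 11.64, 11.72, 11.64 and 11.21 in knockout arrays (6A, 6B, 6D, 84) and at 11.57, 11.66, 11.67 and 11.68 in rescued arrays. Only line 84 differed by more than 0.1, higher by 0.46, and the mean change of 0.09 was -0.04 without it. Cdk1, the kinase that starts mitosis, was higher by 0.08 ± 0.04, Plk1, a kinase of centrosomes and spindles, by 0.11 ± 0.04 (adjusted p = 0.39, limma), and Ccna2, the cyclin A gene, by 0.04. By line, Ccna2 was higher by 0.0038, 0.04, 0.0031 and 0.10 in 6A, 6B, 6D and 84. Its other probe set had signs that differed between lines and a mean change of 0.0073.

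Ccnb2, the measured B cyclin, was at 11.59, 11.63, 11.62 and 11.35 in knockout arrays (6A, 6B, 6D, 84) and at 11.65, 11.61, 11.58 and 11.35 in rescued arrays. The groups coincided, and both arrays of line 84 were low. The Aurora kinases Aurka and Aurkb, the checkpoint kinase Bub1b, topoisomerase gene Top2a, Birc5 (survivin), the centromeric histone gene Cenpa, the spindle motor gene Kif11 and Cdc20, an activator of the anaphase-promoting complex, had mean changes between -0.07 (Bub1b) and 0.05 (Birc5). Without line 84, the mean change of Cenpa went from -0.03 to 0.04 and that of Cdc20 from -0.06 to -0.0005.

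A further 55 mitosis genes (of 60 listed) were measured. The signs were positive in all 4 lines for 10 (18.2%, against 12.0% of all probe sets) and negative for 3 (5.45%, against 11.8%). These counts were not repeated under other scalings. The median change was 0.04, from medians of 0.04, 0.00, 0.01 and 0.11 in 6A, 6B, 6D and 84, so that line 84 had the largest and 6B none, and 0 were called by limma or SAM paired (2 higher and 0 lower at an unadjusted p under 0.05). Ube2c, the ubiquitin-conjugating enzyme of mitotic exit, was at 0.16 ± 0.05 (SE), Kifc1, a spindle motor, at 0.13 ± 0.04, and Ncapd2, a condensin subunit, at -0.08 ± 0.04, each with limma adjusted p of 0.34 or more.

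Cell cycle inhibitors gave no common direction. Cdkn1a (p21) had a mean change of -0.02 (0.03 without line 84) and Cdkn1b (p27) of 0.02, with lines on both sides of 0 for each. Cdkn2c, which encodes an inhibitor of CDK4 and CDK6, was at 8.41, 8.18, 8.03 and 8.12 in knockout arrays (6A, 6B, 6D, 84) and at 8.23, 8.37, 8.32 and 8.63 in rescued arrays. It was higher in 6B, 6D and 84 and lower in 6A, for a mean change of 0.20 ± 0.11 (SE, n = 4 lines; adjusted p = 0.50, limma) that was 0.10 without line 84 and 0.33 without line 6A.

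Cdkn2a, the locus of p16 and p19Arf, was dim in lines 6A, 6B and 6D. Its level was 5.14, 4.93, 4.99 and 6.05 in knockout arrays (6A, 6B, 6D, 84) and 5.05, 4.67, 5.11 and 6.60 in rescued arrays. Both arrays of line 84 stood above the other 6, and the mean change of 0.08 ± 0.13 (SE, n = 4 lines; adjusted p = 0.83, limma) became -0.08 without that line. One symbol covers both products of the locus, and they were not told apart here.

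More probe sets were called between lines than between groups. The limma F test between lines, over all 8 arrays with the group in the fit, called 10 of the 41 genes (24.4%), against 23.0% of all probe sets, a share near that of the array as a whole. They were all 5 genes of the D cyclin group, Prim1, Ccnb2, Plk1, Aurka and Cdkn2a. Without line 84 the test called 0 of the 41 genes and 183 probe sets, in place of 5211.

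Line 84 was higher than the mean of the other 3 lines by 2.03 for Ccnd1 (4.09-fold; adjusted p = 0.010, limma F test), by 1.17 for Ccnd2 (2.25-fold; adjusted p = 0.0081), by 1.34 for Cdkn2a (2.53-fold; adjusted p = 0.021) and by 0.65 for Cdk4 (1.57-fold; adjusted p = 0.016). These folds average the 2 arrays of each line. The adjusted p given with each is that of the F test for any difference among the 4 lines. The contrast of line 84 with the other lines was not itself tested. It was lower by 1.38-fold for Cdk6 (adjusted p = 0.061), 1.20-fold for Ccnb2 (adjusted p = 0.073) and 1.18-fold for Ccnd3 (adjusted p = 0.097, limma F test for each). The other 3 lines lay within 0.18 of one another for Ccnd1, 0.08 for Ccnd2 and 0.04 for Cdk4. Among replication genes Prim1 was the one called on its brightest probe set, at 1.19-fold higher in line 84. This depended on the probe set, since the other Prim1 probe set was not called (adjusted p = 0.94, limma F test). Dimmer probe sets of Mcm4, Mcm7 and Rrm2 were called (adjusted p = 0.043, 0.049 and 0.122, limma F test).

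**Figure D4:**
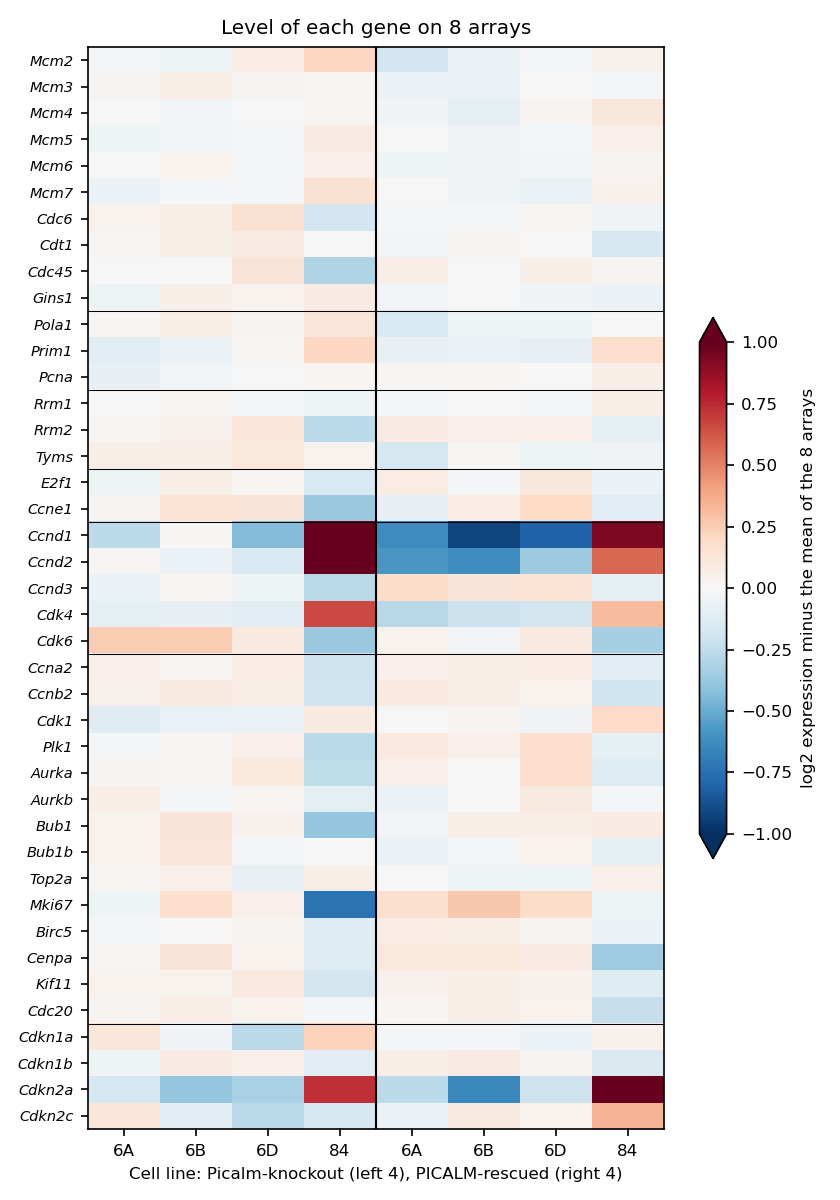
Log2 expression of 41 genes (rows, by role) on 8 arrays (columns, Picalm-knockout left and PICALM-rescued right, by line), as the difference from each gene's mean over the arrays, with colours saturated beyond 1. Most rows are pale, and both columns of line 84 are dark for Ccnd1, Ccnd2, Cdk4 and Cdkn2a.

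The cells carried blood cell transcripts. All 10 general blood cell markers were measured, with summed levels from 15.25 to 15.41 in knockout and 15.37 to 15.49 in rescued arrays (log2 of the sum). Neutrophil granule genes were higher after rescue, with 10 of 15 measured (66.7%, against 12.0% of all probe sets) higher in all 4 lines. Their median change was 1.43 (0 called by limma, 2 by SAM paired, 9 higher at an unadjusted p under 0.05). By line the medians were 1.71, 0.66, 0.38 and 1.84 in 6A, 6B, 6D and 84. Summed levels in knockout arrays were 12.88 in line 84 and 14.77 to 15.17 in the other lines, and 15.42 to 16.35 in rescued arrays. Of mast cell and basophil genes, 6 of 10 (60.0%, against 12.0% of all probe sets) were higher in all 4 lines and 0 were lower. Their sums in line 84 (12.35 and 13.78) were above those of the other lines (9.99 to 11.00). Of 11 measured progenitor genes, 6 had positive and 5 negative mean changes, with a median of 0.04. Cd34 and Sox4 were lower in all 4 lines, by 1.25 and 1.32, and were called by SAM paired. Elane and Mpo were higher in all 4, by 0.92 and 0.12, and were not called. Line 84 set the value of Elane, which changed by 0.56, 0.36, 0.18 and 2.58 in 6A, 6B, 6D and 84. In bulk samples, fewer cells of a type and less RNA per cell cannot be told apart, and the part of these marker shifts in the D cyclin values was not tested. Erythroid (7 of 12 measured) and lymphoid genes (11 of 13) had summed levels of 8.38 to 9.62 and of 9.41 to 11.70, highest in line 84 for both. The defining genes Hba-a1, Cd3e and Pax5 reached at most 6.32 on any array, and the highest level in the erythroid list was 8.33. In contrast, Nkg7, of the lymphoid list, was at 10.91 and 11.32 in line 84 and at 7.01 to 7.88 in the other lines. Gata1, of the erythroid list, was at 6.67 and 7.46 in line 84 and at 5.15 to 5.38 in the others. Monocyte and macrophage genes (12 of 13) had 3 higher and 3 lower in all 4 lines. The array medians were 7.32 to 7.35, and the 3′ to 5′ difference of Gapdh probes, a sign of RNA quality, ran from -0.07 to 0.09, highest in the rescued array of line 84.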

How the data were processed

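RNA of 4 Picalm-knockout and 4 PICALM-rescued cell samples was hybridized to Affymetrix mouse expression arrays (A version, per the labels). The values were deposited on the log2 scale after RMA by the authors, and no further normalization was applied. RMA makes arrays alike in distribution, so a shift of all genes would not be seen, and the precision is limited by the number of arrays. The table held 22690 probe sets, 64 of them controls that were dropped. The probe annotation gave 1 symbol for 20380 of the remaining 22626, several for 691 and none for 1555, and 20351 gene IDs were found in a current gene table, where 0 symbols changed. Picalm has no probe set in that table, so its level could not serve as a check of the labels. The aligning of probes to a genome build is not given in the sources used here, and coordinates belong to the RefSeq promoters alone.

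Groups were compared in limma 3.58.1 (R 4.3.3), lmFit and eBayes, two-sided, with the cell line as a block, p-values adjusted by Benjamini-Hochberg across the whole table, and calls made at 12.3%, the FDR of the methods, which used SAM with no pairing stated. Arrays were paired because each line gave both. After removal of the group means the 2 arrays of a line correlated at 0.623 to 0.811, and each array correlated best with its own line. The group means include line 84, so its distance from the other lines enters the correlations of all lines. Errors after ± are standard errors of the fit with 5.67 moderated degrees of freedom. The p-values of the group comparison rest on how much the rescued minus knockout difference varied among the 4 lines. That variance was moderated over all probe sets, and differences in level between lines were removed by the block. Genes given array by array were those called, those with groups that did not overlap, the 6 with the largest mean change in the same direction in all 4 lines and the 6 with the largest F between lines. Bub1 and Cdkn2c were added after their values were seen. From the other lists the text names genes that moved alike in every line, by smallest p in the pathway lists and by largest change in the marker lists. Hba-a1 and Cd3e, which did not move alike in every line, were picked as defining genes. The members and lists were chosen with earlier results of these data known. Alternatives were no block, SAM paired (16 sign changes) and unpaired (70 arrangements), the methods' t-test, array weights (statmod 1.5.0), quantile normalization, median centring, a filter on the dimmest 40%, a robust fit with a variance trend, averaging the probe sets of a gene, a threshold of 0.05, and leaving out each line. Scripts were tested on simulated data.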

Additional observations from a re-analysis of the deposited data

Results flagged for a closer look

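In groups of 4 arrays, an array was marked where its gap to the nearest other, divided by the range of the group, passed Dixon's critical value of 0.829. Of 82 groups (41 genes in 2 groups), 12 held such an array (14.6%, against 13.6% over all probe sets), and chance marks about 1 in 20 groups. All 12 were arrays of line 84, 4 knockout and 8 rescued. The high ones were Ccnd2 at 12.76, Cdk4 at 12.48 and Mcm5 at 11.84 in the knockout array, and Ccnd1 at 9.68, Cdk4 at 12.14, Prim1 at 11.37 and Rrm1 at 12.24 in the rescued array. The low ones were Ccnb2 at 11.35 in the knockout array and Ccna2 at 11.79, Cenpa at 11.16, Kif11 at 10.31 and Cdc20 at 12.11 in the rescued array. All are log2 levels, and the reason for them was not tested.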

How the results depend on the processing

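Probe sets called higher (1) and lower (17) varied with the method. They numbered 0 and 0 without the line as a block, 25 and 92 with array weights, 19 and 81 with a variance trend, 0 and 4 at a threshold of 0.05, 122 and 470 by SAM paired, 11 and 39 by SAM unpaired, 617 and 562 by the methods' t-test at p under 0.05, and 0 and 0 after Benjamini-Hochberg adjustment. Without the dimmest 40%, 0 were called higher. Leaving out a line gave 0 to 8 higher and 0 to 42 lower, with 8 and 42 without line 84 and 0 otherwise.

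Of the 41 genes, 0 were called higher under any alternative. Called lower were 1 with a variance trend (Ccnd2), 2 by SAM paired (Ccnd1 and Ccnd2), 3 by the methods' t-test at p under 0.05 (Mcm3, Pola1 and Tyms), and 0 without the block, where the lowest adjusted p was 0.97, and under the other alternatives. Between lines, 5211 probe sets became 5528 without the dimmest 40% and 5972 with a variance trend. The filter left fewer probe sets to test, so its calls were a larger share of those tested. The 5211 became 2440 at a threshold of 0.05 and 183 to 4223 with a line left out. The 10 genes became 17 without the dimmest 40%, 17 with a variance trend, 4 at a threshold of 0.05 and 0 to 8 with a line left out, with 0 without line 84.

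The change of Ccnb2 (-0.0025) turned to 0.0054 after median centring, and ran from -0.0219 to 0.0097 with a line left out (0.0039 without 6B, 0.0097 without 6D). That of Cdkn2a turned to -0.0409 with array weights and ran from -0.0771, without line 84, to 0.1938 with a line left out. The cause was not tested. Of 23 genes given by range, 15 took the other sign under at least 1 alternative, all with a change of at most 0.09 in size, and 0 were called. The median changes of the replication, mitosis, D cyclin and inhibitor genes moved by less than their spread between lines under every alternative run.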
